A study of Mus musculus with 35 samples.

Results

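Cadherins and protocadherins were covered by 99 of the 24620 probes on the array, for 72 of the 15968 genes named there. The probes were taken by gene symbol: Cdh or Pcdh followed by a digit, or a name starting with Pcdha, Pcdhb or Pcdhg. RNA came from tissue punches of frozen brains of test-naive male mice aged 3 to 4 months, and each array held the sample of 1 mouse. The groups were A/J hippocampus (9 arrays), C57BL/6J hippocampus (9), A/J amygdala (8) and C57BL/6J amygdala (9), with no treatment and no engineered allele in either inbred strain. The labels do not tie hippocampus and amygdala samples to the same animal. In such punches, fewer cells of a type and less RNA per cell cannot be told apart.

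Cadherins are membrane proteins whose extracellular repeats bind calcium and hold cells together, mostly by binding the same cadherin on the neighbouring cell, and classical cadherins are linked through catenins to actin. Different classical cadherins and delta-protocadherins mark different brain nuclei and layers, and they take part in axon growth and synapse formation. The clustered protocadherins (alpha, beta and gamma) are expressed in different combinations by single neurons, which gives each neuron a surface identity used in self-avoidance.

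A probe was called detected on an array when its signal exceeded the negative control beads with a detection p under 0.01. Of the 99 member probes, 54 were detected on no array, 12 on 1 to 7 arrays and 33, for 24 genes, on at least 8 arrays, and these 33 were tested among 10408 probes. The values below are log2 signals after background correction and quantile normalization. Signals of different probes cannot be set against each other. The lowest log2 signal called detected lay between 5.05 and 6.56 depending on the array, so levels in or under that range are near the background.

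The arrays detected 6099 to 11039 probes (median 8711) and 10 to 32 member probes, and 8 of the 35 arrays detected fewer than 7000 probes. The regions matched their labels by marker genes. All 4 tested hippocampal markers, among them Prox1 of dentate granule cells, were higher in hippocampus. Of 6 amygdala markers 5 were higher in amygdala, and Isl1 was detected on 0 of 18 hippocampus and 17 of 17 amygdala arrays. The exception was Prkcd, which was higher in hippocampus by 1.83.

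The punches also differed in markers of other tissue. All 3 tested striatal markers were higher in amygdala, with a mean log2 level of the list of 5.72 to 6.68 on hippocampus arrays and 7.27 to 10.80 on amygdala arrays. Of 4 oligodendrocyte markers 3 were higher in amygdala (9.02 to 10.73 in hippocampus, 9.82 to 11.40 in amygdala). Both tested thalamic markers were higher in hippocampus, as was 1 of 4 tested markers of meninges and choroid plexus. The mean levels of these lists also hold genes on the array that were not tested, such as Lef1 and Prkch. For the thalamic list (4 genes on the array) the mean was 6.48 to 7.78 in hippocampus and 5.76 to 6.58 in amygdala. For meninges and choroid plexus (5 genes) it was 7.09 to 8.89 in hippocampus and 6.47 to 9.54 in amygdala. None of the tested astrocyte (4), microglial (3), endothelial (3) or pan-neuronal (2) markers passed for region with limma, and 1 of them, microglial, had an unadjusted p under 0.05. The part of these tissues in the region differences of the cadherins was not tested.

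The first comparison asked which adhesion genes differed between the regions. Of 33 tested member probes, 4 were higher in hippocampus and 6 in amygdala. The hippocampal ones read Pcdh20, Cdh8, Pcdh1 and Pcdhb4, and the amygdalar ones Cdh13, Cdh7, Pcdh10 (2 probes), Cdh22 and Cdh4. The difference was hippocampus minus amygdala averaged over both strains, tested with limma over all 10408 probes with a Benjamini-Hochberg adjusted p under 0.01. These 4 are 12.1% of the tested members, and 6.42% of all tested probes were called higher in hippocampus. The 6 are 18.2% of the members, and 5.76% of all tested probes were called higher in amygdala. A further 23 member probes did not pass. An unadjusted p under 0.05 was found for 14 of the 33 members and for 2756 of all 10408 tested probes. On the authors' processed log2 values the sizes of the 13 region and strain calls were 3.70% to 45.3% of those given below. The median difference of the members was 0.04 (all tested probes 0.00) and the median size 0.18 (all tested probes 0.16).

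**Figure D1:**
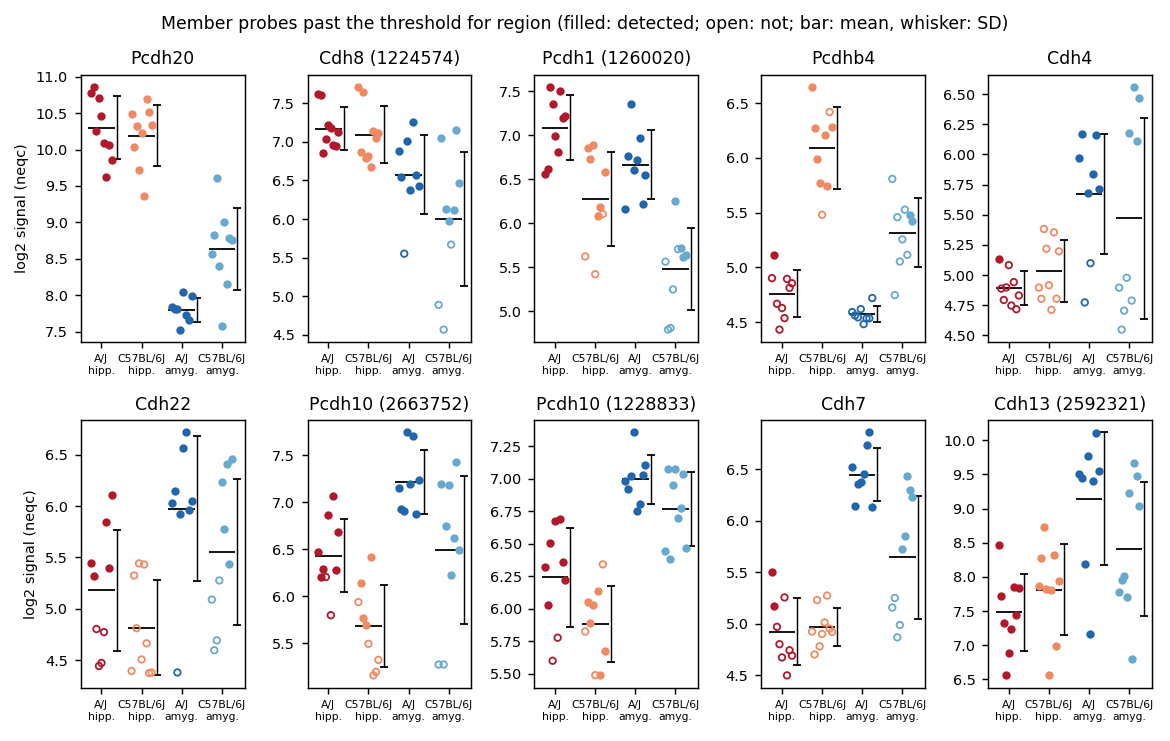
log2 signal (y axis) of the 10 member probes that passed for region, on the 9 A/J hippocampus, 9 C57BL/6J hippocampus, 8 A/J amygdala and 9 C57BL/6J amygdala arrays, with 1 point per array (filled where detected, open where not), a bar at the mean and a whisker of 1 SD. Pcdh20 lies at 9.36 to 10.86 in hippocampus and 7.53 to 9.61 in amygdala, and each panel has its own y range.

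The upstream sequences are shown for 2 genes higher in hippocampus (Pcdh20 and Cdh8) and 2 higher in amygdala (Pcdh10 and Cdh7). The sequences were picked by hand from called genes with an entry in the RefSeq promoter table (GRCm38.p6), where 16 of the 72 member genes were matched. Each is the 250 bases before an annotated start site, read 5′ to 3′ on the gene's strand: chr14:88471397-88471646 (minus), chr8:99416472-99416721 (minus), chr3:45378148-45378397 (plus) and, for the most upstream of 3 starts, Cdh7 chr1:109982650-109982899 (plus). Capitals mark CCAAT boxes (CCAAT), GC boxes (GGGCGG) and half-sites of the cAMP response element (TGACG), searched on both strands, which did not overlap here.
Pcdh20: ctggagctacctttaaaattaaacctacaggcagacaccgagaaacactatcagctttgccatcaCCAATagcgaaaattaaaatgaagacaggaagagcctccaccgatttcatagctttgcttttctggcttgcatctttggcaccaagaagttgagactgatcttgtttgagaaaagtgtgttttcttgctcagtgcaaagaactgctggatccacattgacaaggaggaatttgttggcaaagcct
Cdh8: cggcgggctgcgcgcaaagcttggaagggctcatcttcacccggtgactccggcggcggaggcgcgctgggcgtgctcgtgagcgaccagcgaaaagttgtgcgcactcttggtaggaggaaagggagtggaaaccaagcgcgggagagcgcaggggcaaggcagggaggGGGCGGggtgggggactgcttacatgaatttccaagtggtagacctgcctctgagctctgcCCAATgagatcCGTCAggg
Pcdh10: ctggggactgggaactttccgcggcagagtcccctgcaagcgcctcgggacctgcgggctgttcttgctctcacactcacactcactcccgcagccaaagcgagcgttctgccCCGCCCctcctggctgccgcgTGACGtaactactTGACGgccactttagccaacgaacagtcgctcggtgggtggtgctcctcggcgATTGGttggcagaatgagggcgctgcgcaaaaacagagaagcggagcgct
Cdh7: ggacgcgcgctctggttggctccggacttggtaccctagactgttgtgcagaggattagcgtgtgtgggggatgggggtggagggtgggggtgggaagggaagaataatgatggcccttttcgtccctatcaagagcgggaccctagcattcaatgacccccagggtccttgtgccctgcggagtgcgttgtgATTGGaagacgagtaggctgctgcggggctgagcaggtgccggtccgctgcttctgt

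Each of the 4 windows held 1 CCAAT box, which 33.8% of all 32851 promoter windows of this length also held. Among the 18 windows of the 16 matched member genes, 10 (55.6%) held a CCAAT box, 38.9% a GC box and 11.1% a TGACG half-site. A GC box stood in Cdh8 (1) and Pcdh10 (1) and in 32.7% of all windows, and a TGACG half-site in Cdh8 (1) and Pcdh10 (2) and in 17.8% of all windows. The number of CpG dinucleotides was 3 in Pcdh20, 20 in Cdh8, 22 in Pcdh10 and 13 in Cdh7. The median was 6.0 over all windows and 8.5 over the member windows. These are matches of letters and not measured binding sites.

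Pcdh20, a non-clustered protocadherin, had the largest region difference of the tested members. Its log2 signal was 9.36 at the lowest, 10.29 at the median and 10.86 at the highest on 18 hippocampus arrays, against 7.53, 8.04 and 9.61 on 17 amygdala arrays. The regions did not overlap within A/J and overlapped by C57BL/6J arrays. It was detected on all 35 arrays and was higher in hippocampus by 2.03 (SE 0.143), or 4.08-fold, with an adjusted p of 8.0e-14. The authors' processed log2 values gave 0.92, or 1.89-fold. Within a strain, 9 pairs of group means came from arrays of both regions on the same chip (7 chips), and hippocampus was higher in 9. Chips were sorted into a pair of lots by the first digits of their IDs, and the difference was 1.79 within lot 1 (21 arrays) and 2.23 within lot 2 (14 arrays). The study marked this probe as holding a known SNP. That list covers only genes of its 3 network modules, and no other member probe was on it, so the other members were not assessed for SNPs here.

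Cdh8 is a type II classical cadherin of forebrain circuits. The probe ILMN_1224574 ran from 6.67 to 7.72 (median 7.08) on hippocampus arrays, against 4.57 to 7.25 (median 6.43) on amygdala arrays. It was detected on 18 of 18 hippocampus and 13 of 17 amygdala arrays, and the regions overlapped. The amygdala arrays without detection were A/J replicate 3 and C57BL/6J replicates 1, 3 and 6, with 6549, 6555, 6653 and 7944 detected probes. C57BL/6J amygdala replicate 2, with 6243 detected probes, did detect it. The difference was 0.84 (SE 0.183, adjusted p = 6.5e-04), with 0.66 within lot 1 and 1.11 within lot 2. Without the arrays under 7000 detected probes it was 0.61 (adjusted p = 2.3e-03). The other tested Cdh8 probes gave 0.29 (ILMN_3163448, adjusted p = 0.52) and -0.00 (ILMN_3162873, adjusted p = 1.0), so the Cdh8 probes differed in their call. ILMN_3162873 was detected on 14 arrays and lay near the background.

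Pcdh1, a delta-1 protocadherin, was read by a pair of probes. ILMN_1260020 ran from 5.42 to 7.55 (median 6.77) on hippocampus arrays and from 4.79 to 7.35 (median 6.16) on amygdala arrays, which overlapped, and was higher in hippocampus by 0.61 (SE 0.149, adjusted p = 2.5e-03), with 0.60 in lot 1 and 0.76 in lot 2. The other Pcdh1 probe, ILMN_2597660, was detected on all 35 arrays, and its difference of 0.44 (SE 0.130) missed the threshold with an adjusted p of 0.014. Both probes therefore pointed the same way, with 1 call in the main fit. ILMN_2597660 passed on the authors' processed values, over probes detected on all 35 arrays and with chip as a block. It also passed with the number of detected probes as a covariate, with array weights and without the arrays under 7000 detected probes. In the other settings it did not pass.

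Pcdhb4 belongs to the beta cluster, whose genes are similar single-exon copies, so that a probe may read more than 1 of them. It was 4.43 to 6.65 (median 5.30) on hippocampus arrays and 4.48 to 5.81 (median 4.75) on amygdala arrays. It was detected on 8 of 18 hippocampus and 2 of 17 amygdala arrays, so these levels hold values near the background. The difference of 0.48 (SE 0.098, adjusted p = 3.0e-04) was 0.43 within lot 1 and 0.60 within lot 2. With each array centred on its median in place of quantile normalization, its adjusted p was 0.071.

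Among the members higher in amygdala, Cdh13 (T-cadherin, which has a lipid anchor and no cytoplasmic tail) had a difference close in size to that of Cdh7, and which of the pair was larger changed with the processing. The probe ILMN_2592321 was 6.56 at the lowest, 7.82 at the median and 8.73 at the highest on hippocampus arrays, against 6.80, 9.23 and 10.10 on amygdala arrays. All 35 arrays detected it, and the regions overlapped. The difference was -1.13 (SE 0.262, adjusted p = 1.5e-03), a 2.18-fold higher level in amygdala. On the authors' processed values it was -0.36 (1.28-fold). Hippocampus was lower in 7 of the 9 same-chip pairs within a strain. The spread was wide, with SDs of 0.97 in A/J amygdala and 0.98 in C57BL/6J amygdala, and within the lots the differences of -1.23 (lot 1) and -0.71 (lot 2) had adjusted p-values of 0.040 and 0.33. A second Cdh13 probe (ILMN_2659503), detected on 8 arrays, gave -0.28 (adjusted p = 0.19).

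Cdh7, a type II classical cadherin, was seen mainly in amygdala. It was detected on 2 of 18 hippocampus and 13 of 17 amygdala arrays, including 8 of 8 from A/J. The C57BL/6J amygdala arrays without detection were replicates 1 to 4, with 6555, 6243, 6653 and 7480 detected probes, the fewest of that group. A/J amygdala replicate 3, with 6549 detected probes, did detect Cdh7. Its signal ran from 4.50 to 5.51 (median 4.92) in hippocampus and from 4.87 to 6.86 (median 6.23) in amygdala, and in A/J the regions did not overlap. The difference was -1.10 (SE 0.129, adjusted p = 1.8e-08), with -1.27 and -0.79 within lots 1 and 2, and hippocampus was lower in 9 of the 9 same-chip pairs. It was -0.65 with an offset of 50 in place of 16 and -0.05 on the authors' processed values. Since the hippocampal levels are at the background, this size is set partly by that background.

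Pcdh10, a delta-2 protocadherin that joins the WAVE actin regulator through Nckap1, was higher in amygdala by 2 of its 3 probes. ILMN_1228833 was 5.49 to 6.69 (median 6.04) on hippocampus arrays and 6.38 to 7.36 (median 6.96) on amygdala arrays, without overlap within A/J or within C57BL/6J. Its difference was -0.82 (SE 0.105, adjusted p = 1.1e-07), with -0.79 in lot 1 and -0.84 in lot 2. ILMN_2663752 ran from 5.16 to 7.07 (median 6.18) in hippocampus and from 5.28 to 7.74 (median 6.93) in amygdala, which overlapped, with a difference of -0.80 (SE 0.172, adjusted p = 6.1e-04) and -0.91 and -0.53 within lots 1 and 2. The third Pcdh10 probe, ILMN_2727239, gave -0.66 (SE 0.246, adjusted p = 0.061), with detection on 5 of 18 hippocampus and 9 of 17 amygdala arrays. All 3 estimates were below 0. ILMN_2727239 passed with each array centred on its median in place of quantile normalization. It also passed with the number of detected probes as a covariate and with array weights.

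Cdh22, a type II cadherin, and Cdh4 (R-cadherin), a type I cadherin, passed close to the threshold. Cdh22 was 4.37 to 6.11 (median 4.81) on hippocampus arrays and 4.38 to 6.72 (median 5.96) on amygdala arrays, with detection on 5 of 18 and 12 of 17 arrays and a difference of -0.77 (SE 0.203, adjusted p = 5.5e-03). Cdh4 was 4.71 to 5.38 (median 4.90) in hippocampus and 4.55 to 6.56 (median 5.72) in amygdala, with detection on 1 of 18 and 10 of 17 arrays and a difference of -0.61 (SE 0.168, adjusted p = 7.5e-03). In both, the regions overlapped and the hippocampal values were near the background. For each of them hippocampus was lower in 6 of the 9 same-chip pairs within a strain and higher in 3. Within lots 1 and 2 the differences were -0.87 and -0.36 for Cdh22 and -0.77 and -0.19 for Cdh4. Both calls were lost on the authors' own processed values (Cdh22 adjusted p = 0.054, Cdh4 adjusted p = 0.11), without normexp correction (0.011 and 0.015) and without the detection filter (0.014 and 0.017).

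The remaining members of these subfamilies did not pass for region in the main fit. Cdh15 (M-cadherin) was detected on all 35 arrays and was just outside the threshold with a difference of -0.52 (adjusted p = 0.012). It passed over probes detected on all 35 arrays and with chip as a block. It also passed with the number of detected probes as a covariate and with array weights, and not in the other settings. Cdh2 (N-cadherin, the main classical cadherin of neurons) gave 0.18 and 0.14 with 95% intervals of -0.18 to 0.54 and -0.13 to 0.41 on its 2 tested probes. Cdh5 (VE-cadherin of endothelium), Cdh10, Cdh23, Pcdh7 and Pcdh19 had differences of -0.00, -0.18, 0.07, 0.07 and -0.13. The interval of Pcdh19 was the widest of these (-0.69 to 0.43), so a difference of that size was not detectable here. Genes such as Cdh1, Cdh3, Cdh20, Pcdh12, Pcdh15 and Pcdh18 were detected on no array, and Cdh6 on 3 and Cdh11 on 1.

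**Figure D2:**
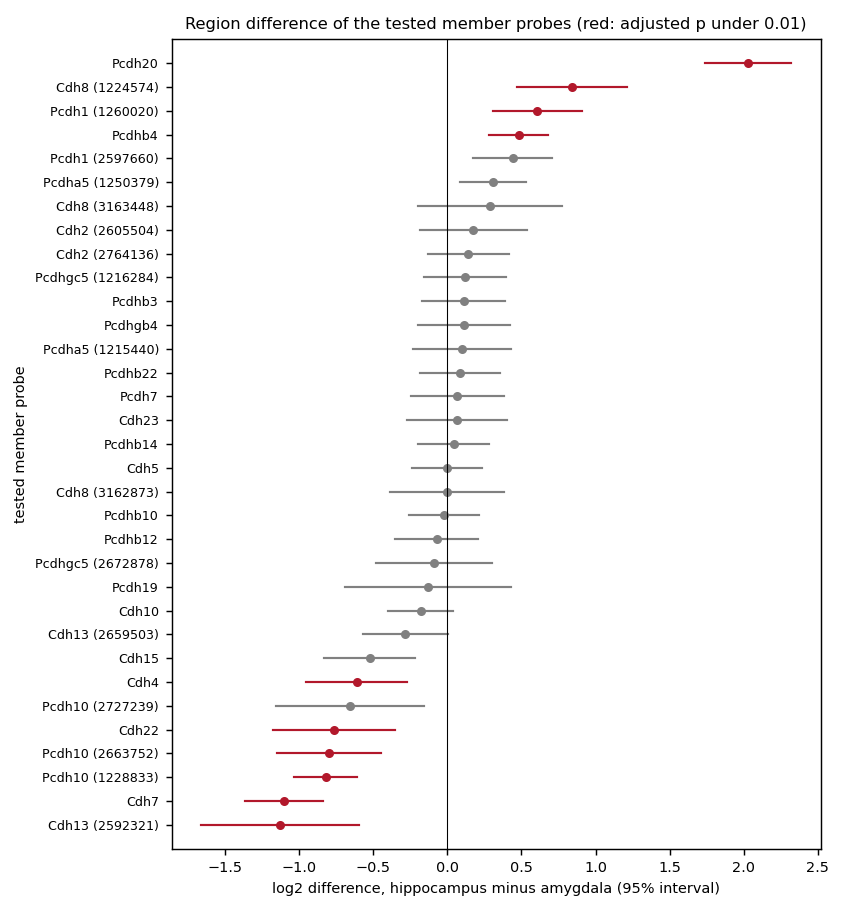
Region difference (x axis, log2, hippocampus minus amygdala, point with its 95% interval) of the 33 tested member probes (y axis), in red where the adjusted p was under 0.01. The values run from 2.03 for Pcdh20 at the top to -1.13 for Cdh13 at the bottom, close to Cdh7 at -1.10, and the 11 clustered protocadherin probes lie between -0.09 and 0.48.

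In the clusters, 50 probes for 45 genes were on the array and 11 were tested, for 9 genes. Pcdhb4 passed (1 of 11, 9.09%), as did 9 of the 22 tested probes outside the clusters (40.9%; 3 higher in hippocampus and 6 in amygdala), and 12.2% of all tested probes passed in either direction. The median size of the region difference was 0.10 in the clusters and 0.48 outside them, and 0.16 over all tested probes. The difference between the clustered genes and the others was not tested. Filtering on detection bears on both counts, because 33 of the 50 clustered probes and 21 of the 49 others were detected on no array.

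The detected clustered genes were few in each family. In the alpha cluster a pair of Pcdha5 probes was detected on all 35 arrays and neither passed in the main fit. Their region differences were 0.31 (ILMN_1250379, adjusted p = 0.044) and 0.10 (ILMN_1215440, adjusted p = 0.79). A Pcdha5 probe passed with each array centred on its median in place of quantile normalization. Alpha and gamma transcripts each share constant exons at the 3′ end within their family, so a probe there would read several genes. The position of these probes was not analysed here. Pcdhgb4 and the Pcdhgc5 probe ILMN_1216284 were detected on all 35 arrays, with region differences of 0.11 (interval -0.20 to 0.42) and 0.12 (-0.15 to 0.39). The other tested clustered probes, of Pcdhb3, Pcdhb10, Pcdhb12, Pcdhb14, Pcdhb22 and a second one of Pcdhgc5 (ILMN_2672878), had region differences between -0.09 and 0.11. Of the 22 beta genes, Pcdhb3 alone was detected on all 35 arrays.

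The second comparison asked which members differed between the strains. Pcdh1 and Pcdh10 were higher in A/J by 1 probe each, and Pcdhb4 was lower in A/J. With 2 of 33 tested members (6.06%) higher in A/J, 2.05% of all tested probes were higher. With 1 of 33 (3.03%) lower, 3.84% of all tested probes were lower. Another 30 members did not pass. An unadjusted p under 0.05 was found for 13 of the 33 members and for 2095 of all 10408 tested probes. The median strain difference was 0.09 for the members and 0.05 for all tested probes.

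**Figure D3:**
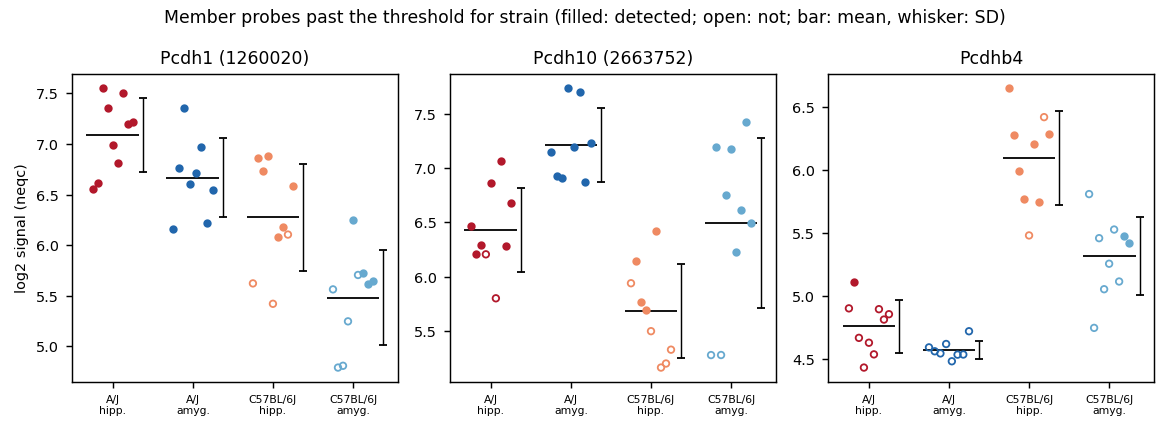
log2 signal (y axis) of the 3 member probes that passed for strain, on the A/J arrays (hippocampus, then amygdala) and the C57BL/6J arrays (hippocampus, then amygdala), with 1 point per array (filled where detected, open where not), a bar at the mean and a whisker of 1 SD. The Pcdhb4 signals run from 4.43 to 5.11 in A/J and from 4.75 to 6.65 in C57BL/6J.

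Pcdhb4 had the smallest strain p of the members. On 17 A/J arrays it was 4.43 at the lowest, 4.62 at the median and 5.11 at the highest, against 4.75, 5.64 and 6.65 on 18 C57BL/6J arrays, and the strains overlapped only within that narrow range. It was detected on 1 of 17 A/J and 9 of 18 C57BL/6J arrays, 7 of the C57BL/6J arrays being hippocampal. The difference was -1.04 (SE 0.098, adjusted p = 1.4e-10), with -0.99 in lot 1 and -1.13 in lot 2. The level was lower in A/J in 6 of the 6 pairs of group means that came from arrays of both strains on the same chip within a region (4 chips). As the A/J signals were at the background, the size is that of signals after background correction.

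Pcdh1 ran from 6.16 to 7.55 (median 6.81) in A/J and from 4.79 to 6.88 (median 5.71) in C57BL/6J by the probe ILMN_1260020, which overlapped. It was detected on 17 of 17 A/J and 10 of 18 C57BL/6J arrays. The difference was 1.0 (SE 0.149, adjusted p = 3.6e-06), with 1.01 in lot 1 and 1.08 in lot 2, and A/J was higher in 6 of the 6 same-chip pairs. The other Pcdh1 probe, ILMN_2597660, gave 0.39 (SE 0.130, adjusted p = 0.055). This probe passed for strain with chip as a block and with the number of detected probes as a covariate.

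Pcdh10 was 5.80 to 7.74 (median 6.87) in A/J and 5.16 to 7.42 (median 6.04) in C57BL/6J by ILMN_2663752, and the strains overlapped. Its difference of 0.74 (SE 0.172) had an adjusted p of 2.95e-03, and A/J was higher in 5 of the 6 same-chip pairs, with 0.80 in lot 1 and 0.70 in lot 2. The other probes of Pcdh10 gave 0.29 (ILMN_1228833, adjusted p = 0.078) and 0.33 (ILMN_2727239, adjusted p = 0.48). Both of them passed with array weights. The call of ILMN_2663752 was lost with chip as a block (0.55, adjusted p = 0.14) and on the authors' processed values (adjusted p = 0.014). It was also lost without the 8 arrays that detected fewer than 7000 probes (0.58, adjusted p = 0.015). Whether strain SNPs lie under any of these 3 probes was not analysed here. Pcdh20, whose probe the study marked as holding a known SNP, gave a strain difference of -0.36. It did not pass in the main fit and passed with array weights.

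The other beta genes did not pass for strain in the main fit. Pcdhb14 gave 0.39 (adjusted p = 0.029), Pcdhb22 0.36 (0.094), Pcdhb10 0.35 (0.058) and Pcdhb12 0.34 (0.14), and Pcdhb3 gave -0.07 (0.79). Of the 6 tested beta probes, 4 had a positive estimate (66.7%), as did 58.0% of all tested probes. An unadjusted limma p under 0.05 was found for 5 of the 6, Pcdhb4 among them, and for 2095 of all 10408 tested probes. Pcdhb14, Pcdhb22, Pcdhb10 and Pcdhb12 were detected on 10 to 16 of the 35 arrays, near the background. They passed with array weights, when 1754 of all tested probes passed for strain. In the gamma cluster, Pcdhgc5 gave -0.53 by ILMN_2672878 (adjusted p = 0.091) and 0.05 by ILMN_1216284 (0.85), and in the alpha cluster Pcdha5 gave -0.13 (0.66) and -0.16 (0.42).

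**Figure D4:**
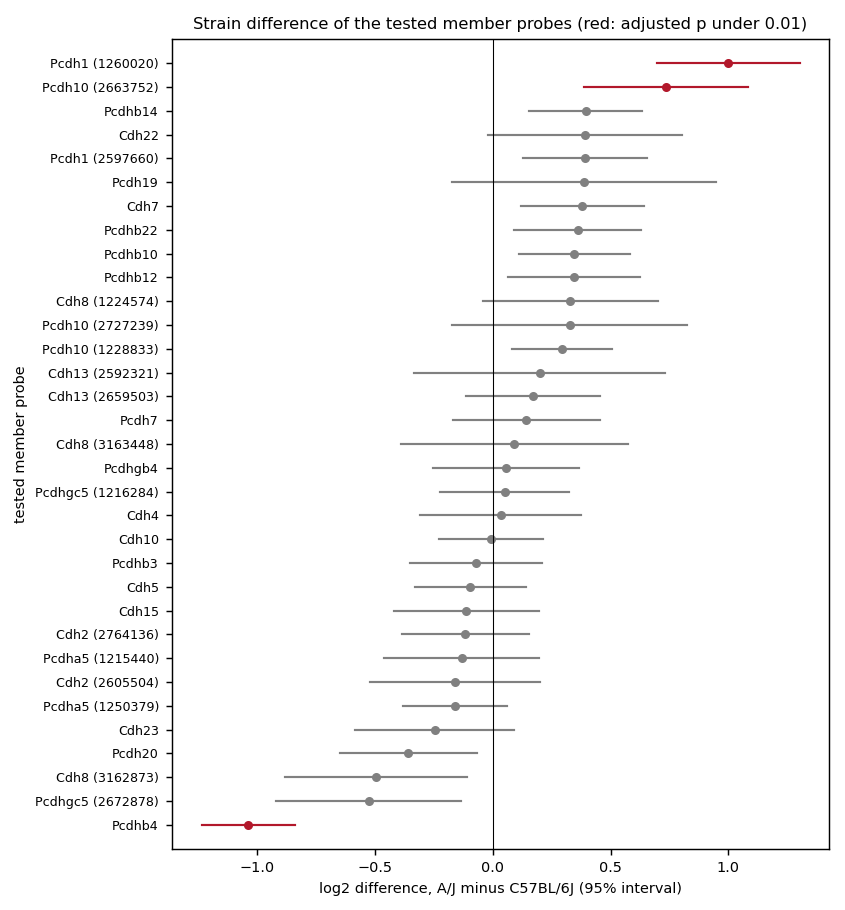
Strain difference (x axis, log2, A/J minus C57BL/6J, point with its 95% interval) of the 33 tested member probes (y axis), in red where the adjusted p was under 0.01. Pcdh1 at 1.0 and Pcdhb4 at -1.04 are the ends of the range.

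No member passed for the interaction, which subtracts the C57BL/6J region difference from the A/J one, with limma, whereas 0.0673% of all tested probes (7) did. Unadjusted p-values under 0.05 were found for 4 of the 33 members and for 798 of all 10408 tested probes. The lowest belonged to Pcdh20 (0.94, SE 0.287, adjusted p = 0.27), Cdh7 (-0.85, SE 0.259, adjusted p = 0.28) and Pcdhb4 (-0.59, SE 0.196, adjusted p = 0.35). In Pcdh20 the region difference was 2.50 in A/J (interval 2.08 to 2.92) and 1.56 in C57BL/6J (1.15 to 1.96). The hippocampal mean was 10.30 (A/J) against 10.19 (C57BL/6J), and the amygdalar mean 7.80 (A/J) against 8.63 (C57BL/6J). The study marked this probe as holding a known SNP, and the part of that SNP in these values was not tested. The interaction of Pcdh20 was 0.52 within lot 1 and 1.29 within lot 2. For Cdh7 and Pcdhb4 at least 1 of the 4 groups had no detected array, so the fitted interactions hold background values. With array weights, Cdh7 passed (-1.16, adjusted p = 4.5e-03), when 169 of all probes passed.

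**Figure D5:**
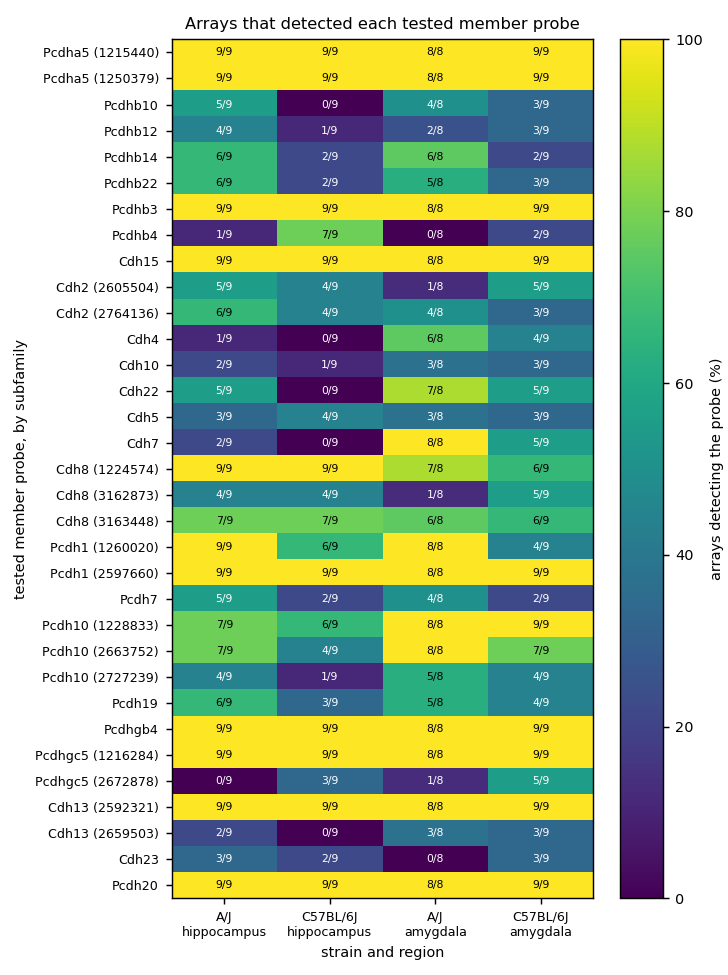
Arrays that detected each of the 33 tested member probes (rows, by subfamily), as a count of the arrays in each strain and region (columns) and as a percentage in colour. Cdh7 reads 2 of 9, 0 of 9, 8 of 8 and 5 of 9 from the left column to the right, and 9 probes are detected on every array.

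The 9 probes detected on all 35 arrays were those of Pcdh20, Cdh13 (ILMN_2592321), Cdh15, Pcdh1 (ILMN_2597660), Pcdhb3, Pcdha5 (2 probes), Pcdhgb4 and Pcdhgc5 (ILMN_1216284). No member was detected on every array of 1 region or strain and on no array of the other.

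Genes that work with cadherins were read with 1 probe for each gene. Of 8 tested catenins and adaptors, 0 passed for region and 0 for strain by limma (3 and 1 had an unadjusted p under 0.05). Ctnna1 (alpha-E-catenin) gave -0.35 (adjusted p = 0.027) and Ctnnb1 (beta-catenin) 0.08 (0.90) for region. Of 3 nectins, which are immunoglobulin-like adhesion proteins at the same junctions, Pvrl3 (nectin-3) was higher in hippocampus by 1.52 (adjusted p = 6.7e-11). Of 5 other members of the cadherin superfamily, Cdhr1 was higher in hippocampus by 1.21 (adjusted p = 1.5e-13) and in A/J by 0.51 (adjusted p = 5.0e-05), while Celsr2, Celsr3, Clstn1 and Clstn3 did not pass.

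Of 5 protocadherin partners and proteases tested, Ptk2b (the kinase Pyk2, which clustered protocadherins bind) was higher in hippocampus by 1.57 (adjusted p = 3.6e-10) and Wasf1 (WAVE1) by 0.86 (adjusted p = 1.8e-08). Nckap1, Rock1 and Cyfip2 did not pass. Among 8 tested regulators of the clustered genes, among them Ctcf, Smc3, Nipbl and Smchd1, 0 passed for region and 0 for strain by limma (1 and 1 had an unadjusted p under 0.05). The largest region estimate there was 0.43 for Wiz (adjusted p = 0.086).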

How the data were processed

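Illumina MouseRef-8 arrays measured RNA of 35 mouse brain samples. Linear bead intensities were extracted by the authors with BeadStudio, which subtracted the mean of each array's negative control beads, and were deposited without normalization between arrays. The detection scores (1 minus the detection p-value, a fraction) were deposited beside them. The log2 values that the authors made with Lumi (variance stabilization, robust spline) served as an alternative. Decimal commas were read as points.

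Here limma (version 3.58.1, R version 4.3.3) applied neqc: normexp from detection p-values, offset 16, quantile normalization and log2. Probes detected (detection p under 0.01) on 8 or more arrays were tested in 1 fit of the 4 group means, with Benjamini-Hochberg adjustment over all tested probes and a threshold of 0.01. The script was tested on simulated data. The p-values measure the spread between the samples of a group, whose number limits the precision. The fit treated all arrays as independent. The labels do not say whether a mouse gave both regions, and such sharing was not modelled.

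The members and gene lists were chosen with earlier results of these data known. Named probes were those past the threshold (up to 12 in each direction), the 3 lowest interaction p-values, each tested probe with its call, and genes whose probes differ in call. Alternatives covered background, normalization, offset, detection filter, chip, chip lot, depth, array weights and leaving out arrays. The set without arrays under 7000 detected probes and the same-chip pairs were chosen after seeing the data.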

Additional observations from a re-analysis of the deposited data

Results flagged for a closer look

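Of 40 groups of arrays (10 member probes that passed for region in 4 groups), 1 held an array far from the rest, and chance alone flags about 1 in 20 such groups. In A/J amygdala, Cdh22 was 4.38 in replicate 3, while the nearest of the other 7 arrays was at 5.92. The gap was 0.659 of the group's range. That array detected 6549 probes, fewer than any other A/J amygdala array. Cdh22 was not detected on it and was detected on the other 7. The lowest log2 signal called detected on that array was 6.35.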

How the results depend on the processing

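No region or strain call of a named member changed sign under any of 13 alternative settings that gave it a value. Of 195 comparisons of a named difference with an alternative, 165 stayed on the same side of the threshold, 29 fell below it and 1 passed it. The 165 include interaction differences that were not called at first and stayed uncalled. All 29 that fell were region or strain calls. The sizes of the 13 region and strain calls moved more: on the authors' values all 13 were 3.70% to 45.3% of the size given, and the size was smaller by over 1.5 times for 5 with an offset of 50 (lowest 53.4%), 2 without normexp correction (lowest 62.2%) and 4 within lot 2 (lowest 31.4%). The 13 region and strain calls kept their sign in both chip lots, and 5 passed within lot 1 and 2 within lot 2, where fewer arrays were tested. Counts of members higher in hippocampus (4) became 2 over probes detected on all 35 arrays and 1 in each lot. Those higher in amygdala (6) became 2 over such probes, 2 in lot 1 and 0 in lot 2. Members higher in A/J (2) became 1 on the authors' values, 0 over probes on all arrays, 1 in lot 1, 0 in lot 2, 9 with array weights and 1 without the 8 arrays of few detected probes. Members lower in A/J (1) became 0 over probes on all arrays and 3 with array weights, and the interaction count (0) became 1 with array weights. Over all 10408 tested probes, array weights raised the strain calls from 613 to 1754 and the interaction calls from 7 to 169. The filter on all arrays leaves 9 member probes to test, and for the other settings the cause was not tested. Leaving out 1 array in turn gave 4 to 5 higher in hippocampus, 4 to 6 in amygdala, 2 to 3 higher in A/J, 1 to 1 lower in A/J and 0 to 0 for the interaction. Cdh4 lost its call in 21 of these 35 fits (highest adjusted p = 0.015): without A/J hippocampus replicate 3, 4, 6, 7, 8 or 9, A/J amygdala replicate 1, 2, 4, 6, 7 or 8, C57BL/6J hippocampus replicate 1, 2, 5, 6 or 8, or C57BL/6J amygdala replicate 5, 7, 8 or 9. Cdh22 lost its call in 6 (highest 0.012): without A/J hippocampus replicate 4 or 5, A/J amygdala replicate 5 or 6, or C57BL/6J amygdala replicate 7 or 9. No paired analysis was possible because the labels do not tie samples of different groups to an animal. Probes detected on few arrays are limited by the background.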
